A study of Mus musculus with 3 samples.

Results

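Muscle genes of the heart and of the developing limb were followed in gastrocnemius, a mostly fast-twitch calf muscle, of mice given tamoxifen to stabilise an Akt fusion protein. The group has 9 genes: the striated-muscle actins Actc1 and Acta1, the developmental myosin heavy chains Myh3 and Myh8, the light chain Myl4, the cardiac troponin Tnnt2, the intermediate filament genes Nes and Des, and the adhesion molecule Ncam1. They were chosen by gene symbol, and the platform annotation assigned 21 of the 45037 analysed probe sets to them, none of which it also gave to another gene. Of these, 13 were bright enough to be kept, which took a mean percentile of at least 50 over the arrays, and each of the 9 genes had at least 1, among 11092 genes compared. The name of the group fits only some of its genes: Acta1 is the main actin of adult fibres, and Nes, Des and Ncam1 do not encode parts of the sarcomere.

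RNA was hybridised to Affymetrix mouse whole-genome arrays, on which each probe set, a group of short oligonucleotides, reads 1 transcript or a few. All mice, the oil controls included, carried the Akt_Cre genotype on a C57BL/CD1 background, with a skeletal muscle transgene for Akt, a growth kinase of the insulin pathway, in fusion with the domain that binds oestrogen. That tamoxifen stabilises the fusion is stated in the labels. The promoter behind the transgene, the part played by Cre and the age of the mice were not given in the sources used here. The 3 groups had been given oil (24 h) or tamoxifen (24 h or 48 h), with 1 array a group and the muscle RNA of 3 to 4 mice combined on it. No value therefore has a replicate error and no test between groups was possible. An oil array at 48 h and a tamoxifen array without the fusion were not analysed here, so time and treatment cannot be told apart at 48 h, nor Akt from other effects of tamoxifen at either time.

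Sarcomeres are built from isoforms that are exchanged as muscle matures. Actc1 is the main actin of the adult heart and of early skeletal muscle and gives way to Acta1 after birth, while Myh3 (embryonic) and Myh8 (perinatal) give way to the adult fast and slow myosins. Tnnt2, Myl4, Nes and Ncam1 are also abundant in developing fibres, and several of these genes return in regenerating or denervated muscle. Serum response factor (SRF) binds the CArG box and is a textbook regulator of the striated-muscle actin genes.

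The start regions of the actin pair are shown because the members' results turn on the contrast between these paralogs. Both are the 250 bases before the annotated start, from RefSeq (GRCm38.p6), written 5′ to 3′ on the gene's strand, with the CArG box in capitals. The first lies at chr2:114052876-114053125 and the second at chr8:123894776-123895025, both on the minus strand.
Actc1: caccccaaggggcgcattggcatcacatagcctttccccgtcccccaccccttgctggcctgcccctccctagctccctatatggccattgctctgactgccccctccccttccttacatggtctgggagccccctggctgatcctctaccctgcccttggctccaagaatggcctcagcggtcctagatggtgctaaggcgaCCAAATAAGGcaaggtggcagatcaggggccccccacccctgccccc
Acta1: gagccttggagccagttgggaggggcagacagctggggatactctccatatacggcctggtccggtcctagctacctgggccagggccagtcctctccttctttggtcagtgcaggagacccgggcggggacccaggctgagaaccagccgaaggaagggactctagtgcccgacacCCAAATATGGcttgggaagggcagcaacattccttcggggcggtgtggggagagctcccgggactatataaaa

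The Actc1 box spans bases 47 to 38 before the start and the Acta1 box bases 73 to 64. The table held 9 such windows for 8 of the members, all but Ncam1, and these were searched on both strands for 4 motifs. A CArG box was found for 2 of the 8 members, Actc1 and Acta1, against 1.47% of all 32851 windows of this length. A MEF2 box, bound by another muscle factor, was found for Myh8 alone, against 2.92% of windows. The M-CAT core CATTCC was found for Acta1 and Tnnt2 (12.6% of windows) and the E-box CANNTG, where myogenic factors bind, for 5 members (66.2%), but not in the Actc1 window. No match overlapped a match to another of the motifs. A match describes these letters only.

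Actc1 was 2.01-fold higher at 24 h of tamoxifen and 4.49-fold at 48 h than with oil, though the value at 24 h was below 2-fold under 2 of 7 alternatives (quantile normalization and a stricter filter). On their reported probe sets, the developmental myosins, troponin and light chain lay within 2-fold of oil. All intensities below were scaled to a common median across the arrays, and a gene was called higher or lower when it differed by 2-fold or more. At 24 h, 1 of the 9 members (Actc1) was called higher and none lower, against 2.35% and 2.48% of the 11092 genes. Among 48 h calls against oil, 1 member (Actc1) was higher and none lower, against 3.72% and 2.71%. Between both tamoxifen arrays, 1 (again Actc1) was higher and none lower, against 1.8% and 1.42% (3.22% in either direction). Over so few members the background share amounts to 0 or 1 gene, so the count says nothing of the members as a group. The background itself depended on scaling: 261 genes were higher and 275 lower at 24 h, but 363 and 206 without scaling, and 200 and 157 between the tamoxifen arrays became 103 and 249. The median log2 ratio of the members was 0.01 at 24 h and 0.09 at 48 h, beside 0.04 and 0.01 over all genes. The members other than Actc1 lay between -0.62 and 0.45 at 24 h and between -0.83 and 0.52 at 48 h.

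**Figure D1:**
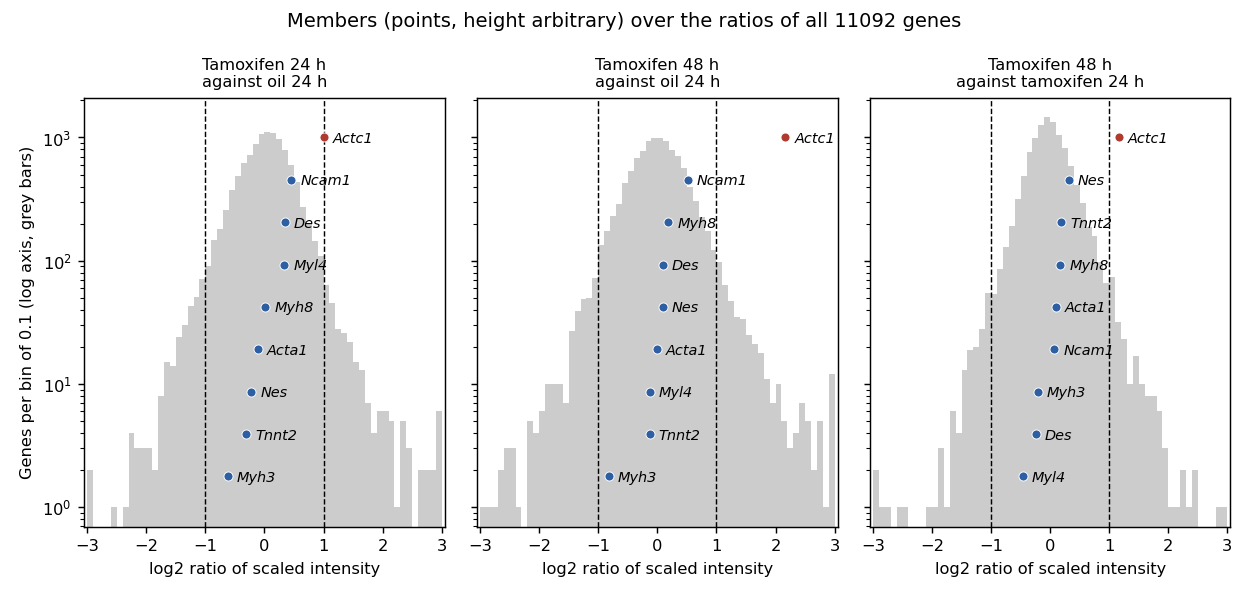
Grey bars count all 11092 genes by log2 ratio (horizontal axis, bins of 0.1, log vertical axis, the outermost bins holding what lies beyond) in the 3 comparisons; points mark the members at an arbitrary height, with dashed lines at 2-fold. Actc1, in red, lies at 1.01, 2.17 and 1.16, and the other 8 members lie inside the dashed lines in each panel.

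Actc1 was the member whose signal moved most. Its scaled intensity was 1459 on the oil array, 2929 at tamoxifen 24 h and 6545 at tamoxifen 48 h. The oil array was lowest and the 48 h array highest. The ratio to oil was 2.01-fold at 24 h and 4.49-fold at 48 h, and the 48 h array was 2.23-fold above the 24 h array. Of 11092 genes, 256 had a higher ratio than Actc1 at 24 h, 42 at 48 h and 102 between both tamoxifen arrays. Actc1 has 1 probe set here, so no second reading of the gene exists on these arrays.

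Acta1, its adult skeletal counterpart, had an intensity of 9445 with oil, 8759 after 24 h of tamoxifen and 9362 after 48 h. These levels lay within 1.08-fold of each other (log2 ratios of -0.11 at 24 h and -0.01 at 48 h). The Acta1 probe set was between the 8th and the 10th brightest of its array, and how intensity follows the amount of RNA at the top of the scale was not examined. Actin paralogs have nearly the same coding sequence, and whether each probe set reads its own gene alone was not examined either.

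**Figure D2:**
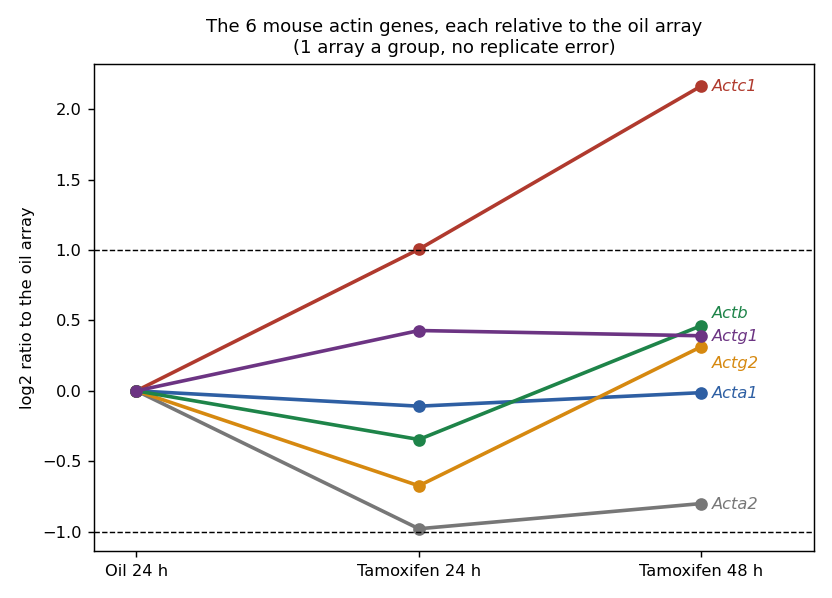
log2 ratio to the oil array (vertical axis) of the 6 mouse actin genes on the oil 24 h, tamoxifen 24 h and tamoxifen 48 h arrays, 1 point an array, with dashed lines at 2-fold. Actc1 lies at 1.01 and 2.17, and the others stay within 2-fold, from -0.98 (Acta2 at 24 h) to 0.46 (Actb at 48 h).

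The other 4 actin genes, which serve smooth muscle and the cytoskeleton, were all within 2-fold of oil. Acta2, the smooth muscle actin, read 1553 (oil), 787.7 (24 h) and 891.9 (48 h), nearest of the 4 to the 2-fold line. Markers of smooth muscle and pericytes, a list of 7 genes that includes Acta2 itself, also lay lower. The median log2 ratio of the 7, all compared, was -0.60 at 24 h and -0.54 at 48 h. Their summed intensity, of which Acta2 is a part, was 5115, 3773 and 3691, so it is not a reading independent of Acta2. Of the 7, Myh11 was called lower at 48 h (2.07-fold), none was called at 24 h, and Cspg4 was above oil at 48 h, at 0.21. In RNA from whole muscle, fewer cells of a type and less RNA per cell cannot be told apart, and the part of these cells in the Acta2 value was not tested. Actb, a cytoskeletal actin, read 3233, 2544 and 4457 on its brightest probe set, but its other kept probe set read 448.6, 325.9 and 266.8, so the pair differed in direction at 48 h. Actg1 read 2248, 3025 and 2948. Actg2 read 72.6, 45.5 and 90.2, below oil at 24 h and above it at 48 h, and 1.98-fold higher at 48 h than at 24 h.

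The developmental myosin heavy chains stayed at low intensity on every array. Myh3 read 25.9 (oil), 16.9 (24 h) and 14.6 (48 h), highest on the oil array, with log2 ratios of -0.62 and -0.83. Myh8 read 18.87, 19.02 and 21.42, with log2 ratios of 0.01 and 0.18. Neither gene passed 2-fold, and neither was higher on a tamoxifen array by more than 0.18 in log2. Both probe sets were near the filter, at mean percentiles of 55.2 and 56.4 against a minimum of 50, where more genes passed the rule: 9.41% of the 3230 genes between percentiles 50 and 70 passed 2-fold at 24 h, against 2.28% of the 1357 genes at percentile 95 or more. At 48 h these shares were 10.7% and 3.46%.

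The adult heavy chains, for comparison, read as follows. Myh4 (type IIB) read 8489, 8716 and 8655, Myh1 (type IIX) 7184, 5982 and 6355, and Myh2 (type IIA) 3817, 4672 and 4688. By its suffix, this Myh1 probe set is of a type that may read related sequences too, which was not examined. Myh7, the slow and cardiac heavy chain, read 1041, 894 and 614, the lowest at 48 h, with a log2 ratio of -0.76. On these probe sets none of the 4 passed 2-fold in either comparison with oil. Of the other kept Myh1 probe sets, 1 read 6365, 5430 and 5766, and 1 of far lower intensity read 9.73, 18.0 and 27.5, which is 2.83-fold higher at 48 h.

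Myl4, the light chain of atrial and embryonic muscle, read 84.6 (oil), 106.7 (24 h) and 77.6 (48 h). The 24 h array was highest and the 48 h array lowest, with log2 ratios to oil of 0.33 and -0.12. Its second probe set was below the filter, at 3.43, 14.5 and 9.84. There the oil reading was under the floor of 4.05, the level to which lower values were raised before ratios were taken, so its ratio was at least 3.59-fold at 24 h and at least 2.43-fold at 48 h. The pair disagreed in direction at 48 h. Myl1, the fast light chain of adult fibres, read 9470, 9440 and 9643.

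Tnnt2, the troponin T of heart and embryonic muscle, read 40.1 (oil), 32.2 (24 h) and 36.7 (48 h), with log2 ratios of -0.31 and -0.13. A second kept probe set, of a type that by its suffix may read related sequences too, gave 22.2, 24.2 and 24.1. The third was below the filter at 4.05, 7.19 and 9.18, a log2 ratio of 1.18 at 48 h. The kept readings lay within 2-fold of oil at both times. The adult fast troponin T, Tnnt3, read 11388, 10749 and 11124, and the slow form, Tnnt1, read 860, 1065 and 819.

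**Figure D3:**
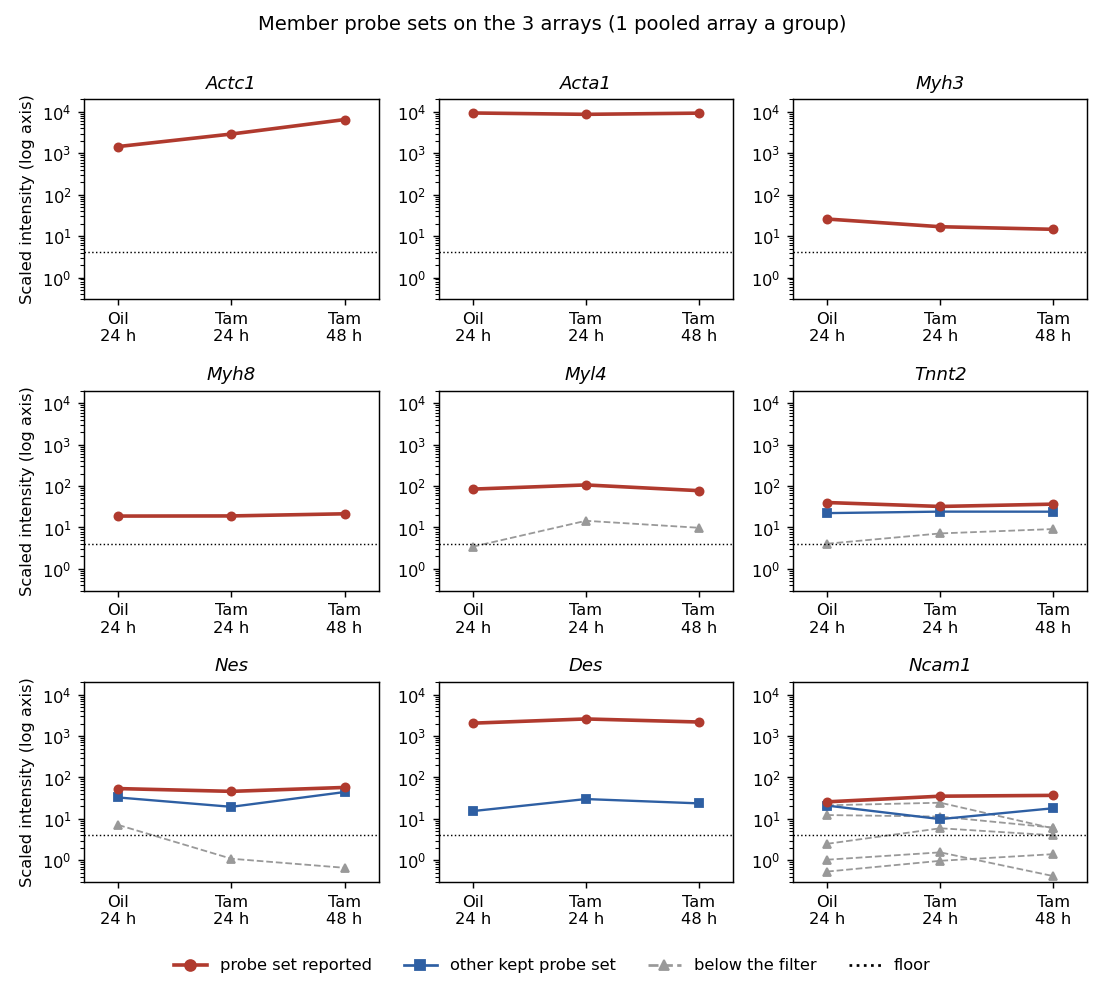
Scaled intensity (log axis) of all 21 member probe sets on the oil 24 h, tamoxifen 24 h and tamoxifen 48 h arrays, 1 panel a gene, 1 point an array; red circles are the probe set reported, blue squares other kept probe sets, grey triangles those below the filter, and the dotted line is the floor of 4.05. The Actc1 line goes from 1459 to 6545, while Acta1 stays between 8759 and 9445 and the reported Myh3 and Myh8 probe sets stay below 26.

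Nes encodes nestin, an intermediate filament protein of immature muscle that adult muscle keeps at synapses, tendon ends and vessels. It read 53.9 (oil), 46.2 (24 h) and 57.4 (48 h), lowest at 24 h, and all within 1.25-fold of each other. A second kept probe set had the same order with wider steps, 32.9, 19.5 and 44.5, which put 48 h 2.28-fold above 24 h. The third was below the filter, and under the floor on both tamoxifen arrays (7.13, 1.09 and 0.657).

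Des encodes desmin, the main intermediate filament of mature fibres, which ties neighbouring Z-discs together. It read 2051 (oil), 2595 (24 h) and 2188 (48 h), highest at 24 h. Its other kept probe set, at far lower intensity, had the same order, with 15.4, 30.1 and 23.7. The log2 ratios at 24 h were 0.34 and 0.97, and at 48 h 0.09 and 0.62.

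Ncam1, an adhesion molecule of immature fibres, satellite cells, synapses and Schwann cells, gave the least even readings. The reported probe set read 25.8 (oil), 35.3 (24 h) and 37.0 (48 h). The other kept one read 20.9, 9.86 and 18.1, which is 2.12-fold lower at 24 h. Of 5 probe sets below the filter, the brightest, at a mean percentile of 49.3, read 21.3, 24.5 and 5.86, 3.63-fold lower at 48 h. Another read 12.4, 11.3 and 6.14, 2.01-fold lower at 48 h, and 2 others were under the floor on all arrays. No direction was shared by all readings of the gene. Markers of Schwann cells and nerve lay slightly lower beside it, with median log2 ratios of -0.21 and -0.31 over the 4 of 8 compared and summed intensities of 2301, 2249 and 2074, and their part in the Ncam1 values was not tested. None of the 4 was called, though other kept probe sets of Mbp and S100b passed 2-fold.

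The oil array enters both comparisons with oil, so they are not independent readings. As a technical yardstick, the standard deviation of log2 ratios between kept probe sets of a gene had a median of 0.30 at 24 h and 0.26 at 48 h over 5001 genes. Variation from mouse to mouse or array to array is not part of it. Over the 7 alternatives the Actc1 value ranged between 1.89-fold and 2.46-fold at 24 h, between 4.27-fold and 4.73-fold at 48 h, and between 1.93-fold and 2.27-fold for the later tamoxifen array over the earlier.

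The tissue read as skeletal muscle on all arrays. All 8 fast fibre markers were compared and lay within 2-fold, with median log2 ratios of -0.04 and 0.01. Of 7 cardiomyocyte markers (Myh6, Tnni3, Myl7, Nppa, Nppb, Gata4 and Nkx2-5), none was kept, and their brightest probe sets read between 0.412 and 15.5, summing to 53.1 on oil, 40.5 at 24 h and 39.8 at 48 h. The highest of these readings was Nkx2-5 on the oil array, at percentile 50.3 of that array. Satellite cell markers, 6 of 7 compared, had median log2 ratios of -0.19 and -0.40; Pax7, which defines these cells, read 18.5, 13.0 and 13.6. In that list the cadherin Cdh15 was higher and the proteoglycan Sdc4 lower at both times, the latter at 390.3, 44.5 and 62.7, while the other kept probe set of Sdc4 read 46.1, 61.5 and 46.7. Endothelial markers, which bear on nestin in vessels, had median log2 ratios of 0.11 and -0.39, all 7 within 2-fold. Fibroblast markers had medians of -0.20 and -0.21, with Col1a1 of the 6 called higher at 48 h (its other kept probe set read 209.7, 221.1 and 230.1), and the 6 macrophage markers had medians of 0.23 and -0.20 with none called.

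Related genes were read from lists, and single members of them were called. None of 23 adult fast and shared sarcomere genes passed 2-fold (medians of -0.08 at 24 h and -0.04 at 48 h), and none of 7 cardiac and slow isoforms did (0.16 and -0.37); the other 7 of the latter list were below the filter, Myh6, Myl7 and Tnni3 among them. These counts are on the brightest kept probe set of each gene; another kept probe set passed 2-fold for Ttn at 24 h (a log2 ratio of -2.22) and for Myh1 at 48 h (1.50). Below the filter, Mybphl read 5.72, 11.3 and 12.8, a log2 ratio of 1.16 at 48 h, and Myl6b read 9.19, 1.82 and 5.18. These shares stand beside 4.83% of all genes at 24 h and 6.44% at 48 h, in either direction.

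Among 12 compared genes of intermediate filaments and desmin partners, 1 was lower at 24 h and 1 higher at 48 h. Of all genes, 2.48% were lower at 24 h and 3.72% higher at 48 h. Synm, whose product synemin pairs with desmin, read 1579, 714 and 1214, 2.21-fold lower at 24 h, but its other kept probe set read 519.8, 557.9 and 606.1. Dtna, which encodes dystrobrevin alpha of the dystrophin complex, read 233.3, 416.8 and 679.1, 2.91-fold higher at 48 h, while its other 5 kept probe sets were within 2-fold, at log2 ratios from -0.24 to 0.82. Vim, encoding vimentin, read 2536, 1899 and 2153. Another kept probe set was lower for Dmd at 24 h (a log2 ratio of -1.82) and for Dst at 48 h (-1.18). The list medians were -0.17 and -0.09. Krt8, of the same list, was below the filter, at a mean percentile of 46.9 on its brightest probe set. That probe set read 9.37, 7.47 and 28.4, 3.04-fold higher at 48 h than with oil, and its other probe sets were under the floor on all arrays.

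Of 16 myogenic and immature fibre genes, 10 were compared, with medians of 0.03 and 0.25. At 24 h 1 was higher and 1 lower, against 2.35% and 2.48% of all genes. Cdh15 was 2.38-fold higher and Dlk1, an imprinted growth gene, 2.41-fold lower. Dlk1 was near the filter, at a mean percentile of 50.6, and read 21.3, 8.83 and 16.3. Peg3 was at a log2 ratio of -0.05 at 24 h on its brightest probe set, but another kept probe set was lower, at -1.19. At 48 h 3 were higher and none lower: Cdh15 (43.5, 103.5 and 150.2 across the arrays), the acetylcholine receptor subunit Chrna1 (120.2, 182.0 and 360.1) and the myogenic factor Myog (62.6, 59.2 and 126.8). The fetal receptor subunit Chrng and the fusion gene Mymk were below the filter, with readings no higher than 2.63 and 5.54. Both were low on the oil array too. Mymx, another fusion gene below the filter, read 1.60, 16.3 and 2.58. The receptor subunit Chrnd, also below the filter, read 9.31, 3.94 and 1.21, under the floor on both tamoxifen arrays.

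Of 13 compared genes of the SRF list, Mrtfa, a coactivator of SRF, read 85.0, 214.9 and 298.1, 2.53-fold higher at 24 h and 3.51-fold at 48 h on its 1 kept probe set. Egr1, an immediate early target of SRF, read 115.1, 192.8 and 392.7, 3.41-fold higher at 48 h. Srf itself read 129.3, 198.1 and 187.9 on its brightest probe set, within 2-fold, while its other kept probe set read 85.0, 117.9 and 183.7, 2.16-fold higher at 48 h. Among the other targets, Ankrd1 read 60.2, 100.6 and 120.2, Vcl (vinculin) 675.8, 863.9 and 1195, and Tagln 438.2, 347.5 and 255.5, none past 2-fold on the brightest probe set. The other kept probe set of Vcl was at 2.00-fold at 48 h. That of Fhl1 was lower at both times, at log2 ratios of -1.28 and -1.68. On the brightest kept probe sets, 1 of the 13 was higher at 24 h and 2 at 48 h, against 2.35% and 3.72% of all genes. None was lower on these probe sets, and the list medians were 0.03 and 0.05. By sign, 7 of the 13 lay above oil and 6 below, at 24 h and at 48 h alike. Fos, also in the list, read 107.6, 156.2 and 111.2, and Csrp3, Cnn1 and Fhl2 were below oil at 48 h (-0.52, -0.54 and -0.46 in log2). Of the NCAM-related list, 4 of 8 genes were compared, with medians of -0.42 and -0.53; Cdh2, encoding N-cadherin, was 2.25-fold lower at 24 h (32.7, 14.5 and 18.8), while its other kept probe set read 13.0, 15.6 and 21.3.

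**Figure D4:**
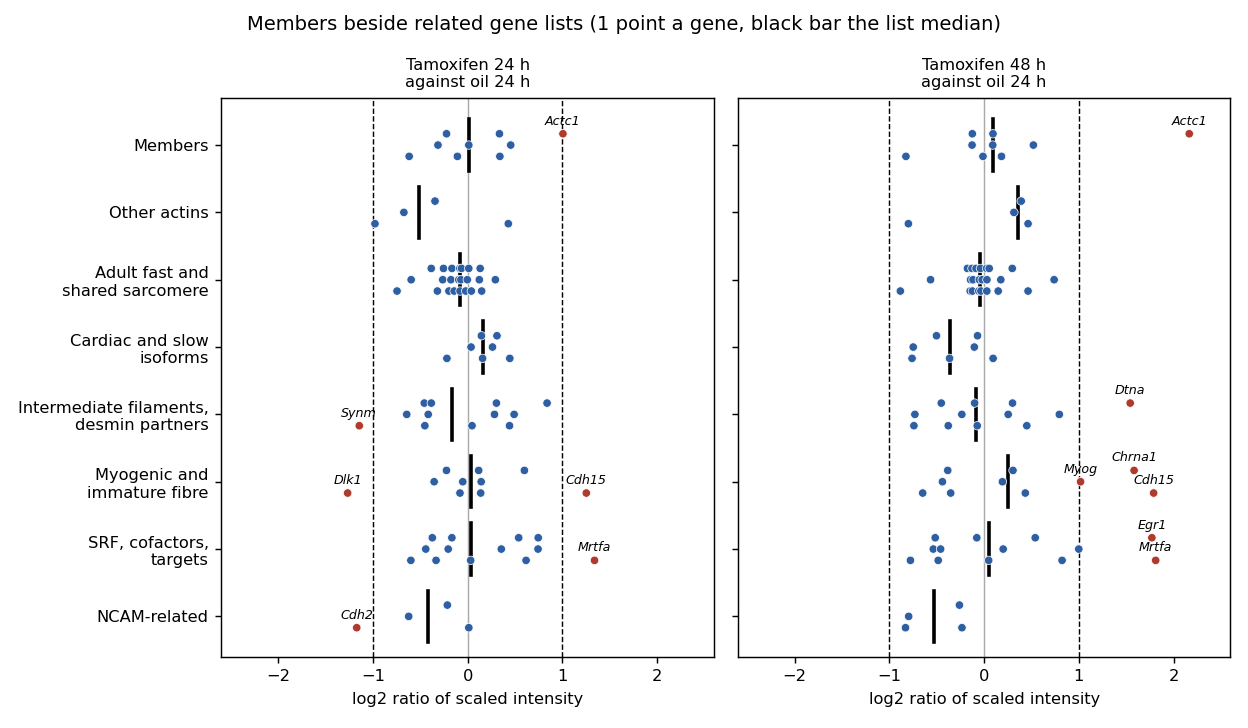
log2 ratios to oil at 24 h (left) and 48 h (right) of the members and 7 related gene lists, 1 point a gene on its brightest kept probe set, red where the 2-fold lines (dashed) are passed, black bars for list medians. Actc1 is the only red point among the members in both panels, and the adult sarcomere rows hold none.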

How the data were processed

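The members and lists were chosen with earlier results of these data known. The authors deposited linear intensities for every probe set of each array; their summary, background correction and scaling: not given in the sources used here. Detection calls were not used. All 3 columns were used. Of 45101 probe sets, 64 controls were set aside; 34945 of the rest had 1 gene in the platform annotation, 932 several and 9160 none listed, and 34741 symbols were checked through Entrez identifiers against the RefSeq table of GRCm38.p6. Probe sets with a mean percentile rank of 0.5 or more were kept (21804, 19362 of them with 1 gene). Arrays were scaled to 1 median over these (oil by 1.01, tamoxifen 24 h by 0.944, tamoxifen 48 h by 1.05), raised to a floor at percentile 25 and taken to log2. Each gene was read on the kept probe set with the highest mean rank. With 1 array a group, the number of arrays limits the precision, and 2-fold is a rule of size. The rule for named genes took all member probe sets, up to 4 genes past 2-fold against oil from each related list, fixed adult or paralogous counterparts, and the 5 genes nearest to Actc1. Some others (Actg1, Actg2, Srf, Ankrd1, Vcl, Fhl1, Tagln, Fos, Csrp3, Cnn1, Fhl2, Pax7, Sdc4, Chrng, Chrnd, Mymk, Mymx, Peg3, Mybphl, Myl6b, Krt8, Ttn, Dmd, Dst, Mbp, S100b, Cspg4, Myh11 and Col1a1) were named after their values were seen. The calculation was tested on simulated data. Python 3.11.15 with pandas was used, and 7 alternatives were tried.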

Additional observations from a re-analysis of the deposited data

How the results depend on the processing

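The counts of members past 2-fold were recomputed under 7 alternatives. At 24 h the count became 0 of 9 after quantile normalization, where Actc1 had a log2 ratio of 0.92, and 0 of 4 with the filter at rank 0.75, where it had 0.95. Between the tamoxifen arrays it became 0 of 9 with no filter, where Actc1 had 0.95. The other 18 of 21 recomputed counts were as reported, those at 48 h against oil in all 7. With no filter the scaling rested on all probe sets, and the median log2 ratio of all genes was 0.19 at 24 h instead of 0.04; without scaling it was -0.18 instead of -0.02 between the tamoxifen arrays. Of 174 recomputed log2 ratios of single members, 6 moved by more than the spread between probe sets of a gene, all of them where the median over kept probe sets was taken: for Ncam1 they were -0.32, 0.15 and 0.47, for Des 0.65 and 0.36, and for Nes 0.75. No called ratio changed sign. Myh3, Myh8, Tnnt2, Nes and Ncam1 had no probe set at rank 0.75 and got no value there. Leaving out an array was not possible, with 1 a group. No paired analysis was possible because each group has 1 array.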

Other observations

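The 5 genes whose pair of log2 ratios to oil lay closest to that of Actc1 were taken from 1166 genes of at least median brightness with 2 or more kept probe sets that share their sign. The measure was Euclidean distance over both ratios, on 3 arrays, and the ratios share the oil array. Mamstr, which encodes a coactivator of MEF2 factors, was nearest at 0.232, with readings of 45.4 on oil, 79.6 at 24 h and 186.9 at 48 h. Ift27, a gene of intraflagellar transport, followed at 0.246 with 70.4, 167.6 and 318.3. Ripor2 read 56.2, 128.2 and 210.1, Dusp27 read 109.9, 256.8 and 386.4, and Atp6v0a1, a subunit of the vacuolar proton pump, read 56.6, 103.6 and 185.5. Their order of arrays follows from how they were chosen and adds nothing to it, and another kept probe set of Ripor2 was lower at 48 h than at 24 h, at a log2 ratio of -0.24. Their kept probe sets agreed to different degrees at 48 h, from log2 ratios of 1.99 to 2.04 for Mamstr and from 1.08 to 2.18 for Ift27. Those of Ripor2 ran from 1.02 to 1.90, of Dusp27 from 1.57 to 1.81 and of Atp6v0a1 from 0.87 to 1.71. At 24 h the ranges were 0.13 to 1.25 for Ift27, 0.16 to 0.87 for Atp6v0a1 and 0.81 to 1.41 for Mamstr. Ripor2 (1.15 to 1.26) and Dusp27 (1.15 to 1.23) had narrower ranges at 24 h.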
